A study of Bos taurus with 9 samples.

Results

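The small leucine-rich proteoglycans examined here are 7 genes of the extracellular matrix: LUM (lumican), FMOD (fibromodulin), PRELP, DCN (decorin), BGN (biglycan), ASPN (asporin) and OGN (osteoglycin, also called mimecan). They were picked by symbol from a table of 22127 genes, and all 7 were found. Reads were counted in 9 RNA sequencing libraries of bovine (Bos taurus) blastocysts at day 8 of development, 3 libraries in each of 3 groups, each made from 9 to 11 pooled embryos. The groups differed in the medium in which the oocytes had been matured for 24 hours inside their cumulus cells. Glucose was at 5.5 mM in the control medium and at 2.75 mM in the low glucose medium. The last medium combined 2.75 mM glucose and 1.8 mM of BHB, an abbreviation the labels do not spell out and that commonly stands for the ketone body beta-hydroxybutyrate. All media carried serum, pyruvate, gentamicin, FSH and estradiol, and all embryos were fertilised in vitro and cultured alike afterwards. The series' title asks how maternal metabolic stress shows in the transcripts of the embryo, with the media standing for that stress in a dish.

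Small leucine-rich proteoglycans are secreted proteins with a curved core of leucine-rich repeats, to which chains of chondroitin, dermatan or keratan sulfate can be attached. They bind to fibrillar collagens and set how fibrils grow in width and spacing, and several of them also hold growth factors of the TGF-beta and BMP families or touch cell surface receptors. Their usual sources are connective tissue cells such as fibroblasts, chondrocytes and stromal cells. By sequence, the family is sorted into classes: DCN, BGN and ASPN belong to class I, LUM, FMOD and PRELP to class II, and OGN to class III.

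The 9 libraries held between 55611205 and 75178898 estimated counts each. Levels are given as CPM, counts scaled to a common library size, which corrects for depth but not for transcript length, so levels of different genes are not set against each other. Replicates correlated at 0.951 to 0.976 within groups (log2 CPM over all tested genes) and at 0.932 to 0.978 between groups, and no pair agreed within sampling noise. Whether replicates are separate cultures is not stated in the labels, and the p-values then measure the spread among these pools, which may be technical. The libraries carried the markers of a blastocyst: 23 trophectoderm genes summed to between 16223 and 25370 CPM in every library and 14 epiblast genes to between 2941 and 4208 CPM, and no member of either list passed the test against control. The 23 hypoblast genes summed to between 7553 and 9948 CPM. Of these, 4 of 21 tested were lower in each comparison with control, against 2.02% of all tested genes in low glucose and 1.38% with BHB. In pooled embryos, fewer cells of a type and less RNA per cell cannot be told apart. Of the 7 members, 5 (LUM, FMOD, PRELP, DCN and BGN) had enough counts to be tested among 16469 genes, while OGN and ASPN were set aside by the filter on low counts. The first 4 of these had at least 13 counts in every library, so they did not enter the test through a single group, while BGN had 0 in low glucose replicate 2.

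LUM transcripts were several-fold lower in blastocysts from both low glucose media. Lumican is a keratan sulfate proteoglycan that coats collagen fibrils and is best known for keeping the cornea transparent. LUM was measured at 204, 125 and 88.0 CPM in control replicates 1, 2 and 3, at 23.7, 13.8 and 5.34 CPM in low glucose and at 12.4, 12.4 and 12.1 CPM in low glucose with BHB. Every control library lay above every library of the other media, and the control libraries themselves spread over more than the whole range of the others. Against control, LUM fell by 3.28 on the log2 scale in low glucose (SE 0.442, 95% interval -4.24 to -2.32, edgeR adjusted p = 0.00222). With BHB it fell by 3.50 (SE 0.447, 95% interval -4.48 to -2.53, edgeR adjusted p = 0.00325). As group means, this is 139 ± 59.2 CPM in control, 14.3 ± 9.21 CPM in low glucose and 12.3 ± 0.154 CPM with BHB (SD, n = 3 each). The LUM level of the low glucose libraries spread over a wide range, while the libraries with BHB were nearly alike. The LUM call held in each of 17 alternative fits of both comparisons.

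**Figure D1:**
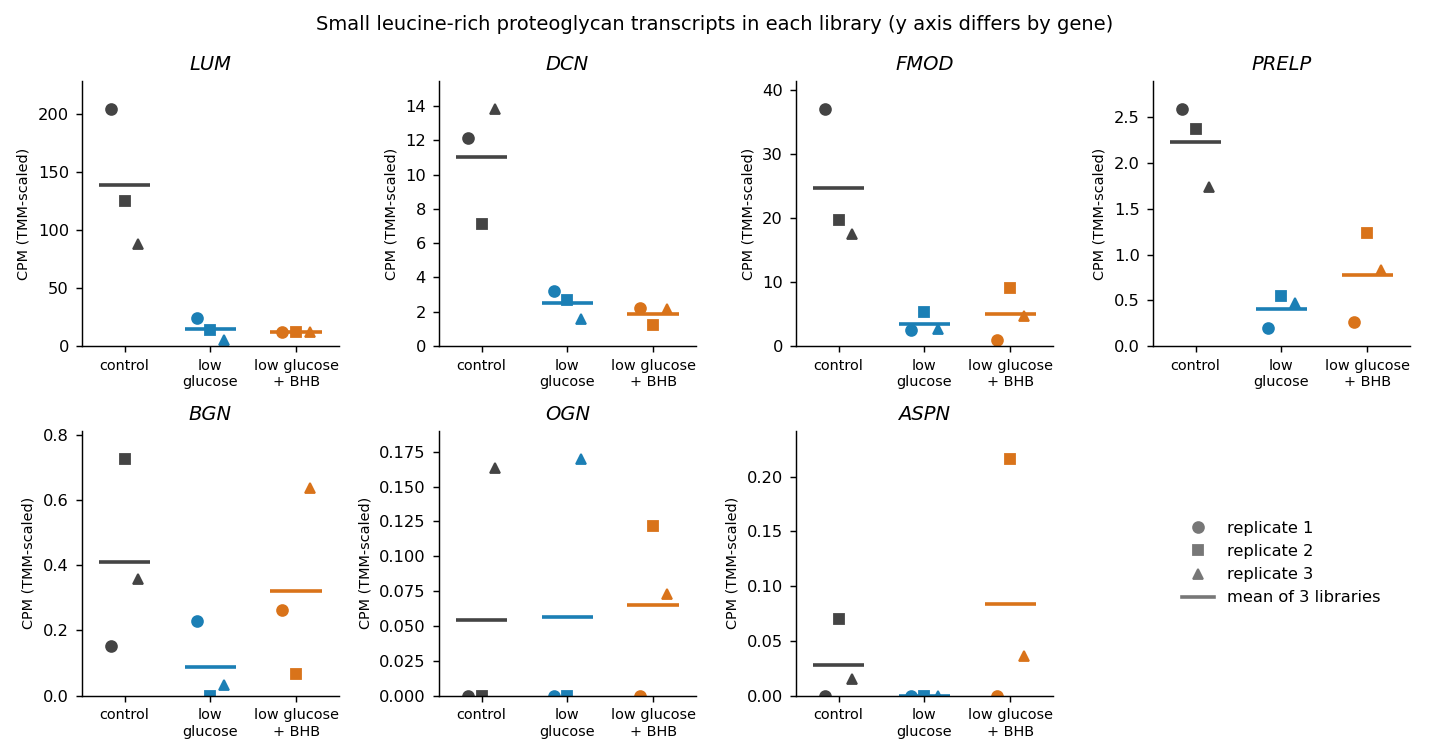
CPM of each of the 7 members (y axes start at 0 and differ by gene) in the 9 libraries, grouped by maturation medium on the x axis, with the replicate number as the symbol and the mean of 3 libraries as a bar. LUM, DCN, FMOD and PRELP have all 3 control libraries above the other 6, while BGN, OGN and ASPN scatter close to 0 in every medium.

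FMOD was also lower in both low glucose media, past the threshold in low glucose and short of it with BHB. Fibromodulin binds collagen at a site that lumican also uses and takes part in the cross-linking and maturation of fibrils. FMOD stood at 36.9, 19.7 and 17.4 CPM in control replicates 1, 2 and 3, at 2.49, 5.28 and 2.60 CPM in low glucose and at 0.952, 9.14 and 4.76 CPM with BHB. All control libraries were above the rest, and with BHB the replicates differed from each other more than the low glucose replicates did. In low glucose FMOD fell by 2.83 (log2; SE 0.620, 95% interval -4.18 to -1.48, edgeR adjusted p = 0.0338). With BHB the log2 difference from control was -2.31 (SE 0.605, 95% interval -3.63 to -0.99) and did not pass (edgeR adjusted p = 0.116). The FMOD call in low glucose was lost on leaving out any 1 of the control or low glucose libraries, or BHB replicate 3, at values of -2.42 to -3.27 (edgeR adjusted p from 0.0553 to 0.163). Without BHB replicate 2, the highest library of its group, the difference with BHB was -3.11 and passed (edgeR adjusted p = 0.0290).

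PRELP stood lower in both low glucose media without passing the test. PRELP is a heparin-binding family member found where basement membranes meet connective tissue. It was measured at 2.59, 2.37 and 1.74 CPM in control replicates 1, 2 and 3, at 0.199, 0.549 and 0.475 CPM in low glucose and at 0.262, 1.24 and 0.836 CPM with BHB. The groups did not overlap with control, but the highest library with BHB came close to the lowest control library. The log2 difference from control was -2.45 in low glucose (SE 0.607, 95% interval -3.77 to -1.13, edgeR adjusted p = 0.0699) and -1.51 with BHB (SE 0.584, 95% interval -2.78 to -0.24, edgeR adjusted p = 0.500). Without BHB replicate 1 the low glucose value, -2.45, passed (edgeR adjusted p = 0.0228).

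Of the class I genes, DCN fell in both comparisons. Decorin carries a single chondroitin or dermatan sulfate chain, decorates collagen fibrils and binds TGF-beta. DCN stood at 12.2, 7.11 and 13.8 CPM in control replicates 1, 2 and 3, at 3.22, 2.70 and 1.58 CPM in low glucose and at 2.25, 1.21 and 2.15 CPM with BHB. Control replicate 2, the lowest of its group, still held more than any library of the other media. DCN fell by 2.14 on the log2 scale in low glucose (SE 0.360, 95% interval -2.92 to -1.35, edgeR adjusted p = 0.00763) and by 2.56 with BHB (SE 0.367, 95% interval -3.36 to -1.76, edgeR adjusted p = 0.00536). Both calls held without any single library. They were lost when the first replicates of all media were left out together, at -2.28 in low glucose and -2.64 with BHB (edgeR adjusted p = 0.0566 for each).

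BGN, the closest relative of decorin in the family, was too scarce for a firm value. It had 9, 52 and 24 counts in control replicates 1, 2 and 3, 15, 0 and 2 in low glucose and 16, 5 and 35 with BHB. No medium stood apart, since the groups overlapped. The log2 difference from control was -2.21 in low glucose (95% interval -5.07 to 0.65, edgeR adjusted p = 0.921) and -0.36 with BHB (95% interval -3.04 to 2.32, edgeR adjusted p = 0.985). The first value ran from -4.50 (without low glucose replicate 1) to -1.52 (without control replicate 2) with single libraries left out, and was -4.93 without the first replicates. The second changed sign without control replicate 2 (0.33) or BHB replicate 2 (0.12).

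ASPN and OGN were close to the limit of detection. Asporin differs from the rest of its class in carrying no glycosaminoglycan chain and takes its name from a stretch of aspartic acid. ASPN had 6 counts over the control libraries (exact 95% Poisson interval 2.20 to 13.1), 0 over low glucose and 18 with BHB (10.7 to 28.4). Of these 18 counts, 16 came from BHB replicate 2. The 0 in low glucose allows up to 3 counts over the group, or 0.0153 CPM. OGN encodes a small keratan sulfate proteoglycan of bone and connective tissue. Its counts over each medium were 11 for control (5.49 to 19.7), 10 for low glucose (4.80 to 18.4) and 13 for BHB (6.92 to 22.2). All OGN counts of control came from replicate 3, and so did all those of low glucose. These intervals and floors cover counting error only, and neither gene was tested between media.

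Set beside the background, 3 of the 5 tested members (LUM, DCN and FMOD) were lower in low glucose, where 2.02% of all tested genes were, and none was higher, against 0.00607% of all genes. With BHB, 2 of 5 (LUM and DCN) were lower, against 1.38% of all tested genes, and none was higher (0.00607%). The median log2 difference of the tested members was -2.45 in low glucose and -2.31 with BHB, while over all tested genes it was 0.02 and 0.01. Without control replicate 1 the members' medians were -2.42 and -1.90. LUM, FMOD, PRELP and DCN had no overlap with control in either comparison, against 8.85% of tested genes that were lower without overlap in low glucose and 8.56% with BHB. No member was higher without overlap, as 4.31% and 4.77% of tested genes were. For these 4 genes all 6 low glucose libraries lay below all control libraries, as for 5.56% of tested genes. The members were chosen with earlier results of these data known. Their shares beside those of all genes are therefore a description and not a test of the family. Both comparisons use the same control libraries, so they are not independent of each other, and the high LUM and FMOD levels of control replicate 1 enter both.

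**Figure D2:**
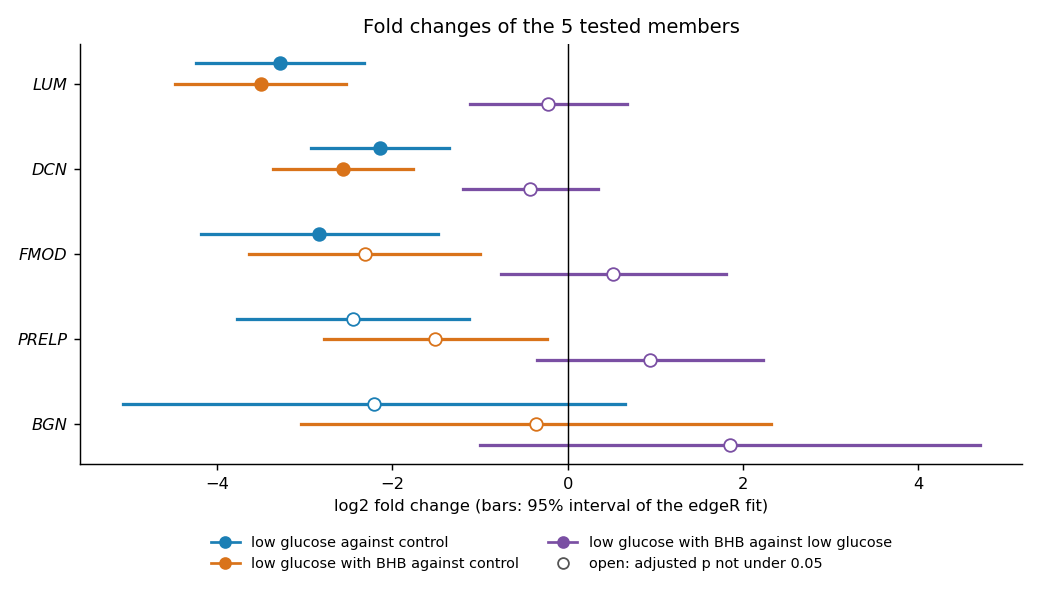
Log2 fold changes of the 5 tested members (x axis) in the 3 comparisons, with 95% intervals of the edgeR fit as bars and filled points for an adjusted p under 0.05. LUM and DCN are filled in both comparisons with control (-3.28 and -3.50 for LUM), FMOD in low glucose alone, and all intervals of BHB against low glucose include 0.

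Adding BHB to the low glucose medium gave no called difference in any member, and the groups of every tested member overlapped (2.54% of tested genes were lower and 2.96% higher without overlap). LUM differed by -0.22 between the low glucose media (log2; 95% interval -1.12 to 0.67) and DCN by -0.42 (-1.19 to 0.35). FMOD differed by 0.52 (-0.76 to 1.81), PRELP by 0.94 (-0.35 to 2.22) and BGN by 1.85 (-1.003 to 4.70), each with an edgeR adjusted p of 1.00. The intervals of LUM and DCN are narrower than those of PRELP and BGN, and none of them shows that the media act alike. With single libraries left out, the BGN value ran from 0.89 (without BHB replicate 3) to 4.16 (without low glucose replicate 1) and the PRELP value from 0.42 to 1.35. The LUM value turned to 0.35 without low glucose replicate 1, the highest library of its group, and the FMOD value to -0.28 without BHB replicate 2. By edgeR, 0 of 16469 tested genes were called lower (0%) or higher (0%) between these media, with 270 at an unadjusted p under 0.05. DESeq2 called 1 lower and 1 higher.

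The members lie in small clusters on bovine chromosomes. In RefSeq's gene order (assembly ARS-UCD2.0), EPYC, KERA, LUM and DCN follow each other on chromosome 5, FMOD, PRELP and OPTC on chromosome 16, and OGN, OMD, ASPN and ECM2 on chromosome 8, while BGN lies on the X chromosome away from the rest. Not every gene of a cluster was detected. Next to LUM and DCN, KERA (keratocan, of the cornea) was at 0 counts in all 9 libraries and EPYC (epiphycan, of growth cartilage) had 7 counts in low glucose replicate 1 and none elsewhere. Next to FMOD and PRELP, OPTC (opticin, of the eye) was also at 0 in every library. A total of 0 over the 3 libraries of a medium allows up to 0.0158 CPM. In the cluster with OGN and ASPN, OMD (osteomodulin) had 4 counts in low glucose, 9 with BHB and 0 in control, and ECM2 stood at 0.315 ± 0.222 CPM in control, 0.180 ± 0.149 CPM in low glucose and 0.250 ± 0.232 CPM with BHB (SD, n = 3 each).

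Profiles of tested neighbours could be compared on chromosomes 5 and 16. The measure was the root mean square difference, in log2 units, between centred log2 CPM values over the 9 libraries, where smaller means more alike. For LUM, DCN was the most similar other member, at 0.756 and rank 49 among 16468 genes, against a median of 1.75 over all of them. For DCN it was LUM, at rank 252 (median 1.23), since the ranks depend on which gene they start from. For FMOD it was PRELP, at 0.598 and rank 32 (median 1.61), and for PRELP it was FMOD, at rank 66 (median 1.25). FMOD lay further from LUM, at 1.01, with FMOD at rank 216 for LUM and LUM at rank 320 for FMOD. BGN ranked no closer than 4215 from any other tested member. These ranks describe libraries that share the difference between control and the other media, so genes that fell by a similar amount come out alike.

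**Figure D3:**
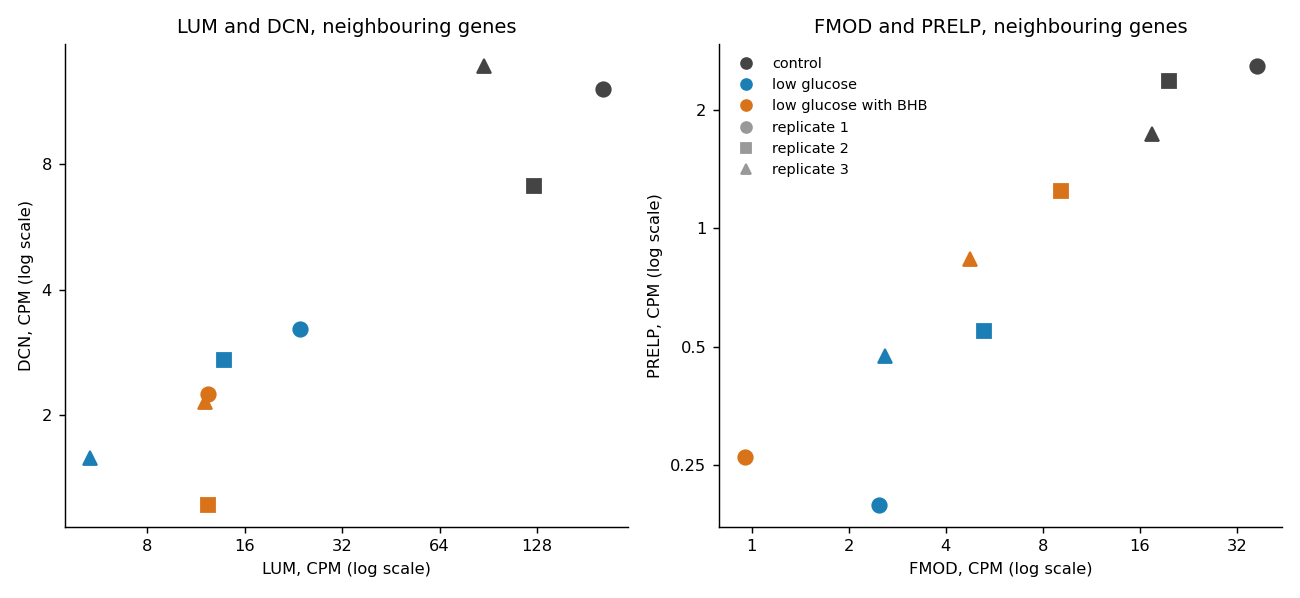
CPM of LUM against DCN (left) and of FMOD against PRELP (right) in the 9 libraries, on log axes of base 2, coloured by medium with the replicate number as the symbol. FMOD and PRELP share their highest BHB library (replicate 2, 9.14 and 1.24 CPM) and their lowest one (replicate 1), while LUM is level at about 12.3 CPM with BHB where DCN varies from 1.21 to 2.25.

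Among replicates of a medium, FMOD and PRELP ranked the libraries in the same order in every medium. The genes that LUM ran with differed between media. In control, LUM, FMOD and PRELP were all highest in replicate 1 and lowest in replicate 3, while DCN was highest in replicate 3 and lowest in replicate 2. With BHB, FMOD and PRELP were both lowest in replicate 1 and highest in replicate 2, where DCN was highest in replicate 1 and lowest in replicate 2. In low glucose, LUM and DCN were both highest in replicate 1 and lowest in replicate 3, while FMOD and PRELP were both highest in replicate 2. The ratio of LUM to DCN counts was 16.8, 17.6 and 6.38 in control replicates 1, 2 and 3, 7.37, 5.11 and 3.39 in low glucose and 5.50, 10.2 and 5.64 with BHB. Groups overlapped, and the log2 ratio differed from control by -1.29 in low glucose and -0.86 with BHB (exact permutation test, two-sided, p = 0.2 for each, n = 3 per group). The ratio of LUM to FMOD was 5.52, 6.36 and 5.05 in control, 9.54, 2.62 and 2.06 in low glucose and 13.0, 1.35 and 2.54 with BHB. Control libraries kept that ratio within a narrow band that the other media left on both sides, with p = 0.4 and p = 0.6 in the exact permutation test of its mean. The ratio of FMOD to PRELP was 14.3, 8.31 and 10.0 in control, 12.5, 9.62 and 5.46 in low glucose and 3.63, 7.36 and 5.70 with BHB. Low glucose overlapped control (log2 difference -0.28, exact permutation p = 0.6), and BHB did not (log2 difference -0.99, exact permutation p = 0.1). With 3 libraries against 3 this test cannot go below 0.1, and over the 8 ratio tests made, the smallest adjusted p was 0.533.

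The genes whose profile lay closest to each member mostly had lower estimates in both low glucose media. Many of them did not pass the test in both comparisons. For LUM the closest were CCDC80 (a root mean square difference of 0.439), THBS2 (0.520), MFAP2 (0.524), PLAT (0.528) and BEND6 (0.533). BEND6 was scarce, at 0.266 CPM in control, and passed in neither comparison. THBS2 encodes a matricellular thrombospondin, MFAP2 a microfibril protein and PLAT the tissue plasminogen activator. CCDC80, a secreted matrix protein gene, stood at 61.3 ± 12.1 CPM in control, 6.74 ± 3.96 CPM in low glucose and 8.11 ± 3.75 CPM with BHB (SD, n = 3 each), and THBS2 at 250.0 ± 38.1, 40.7 ± 27.5 and 32.9 ± 9.36 CPM. For DCN the closest were SUCNR1 (0.370), the succinate receptor gene, PAPSS2 (0.425), TIMP3 (0.440), a metalloprotease inhibitor gene, FAM78A (0.443) and GPRC5A (0.444). GPRC5A passed in neither comparison. For FMOD the closest were IFI6 (0.365), COL11A1 (0.391), IFIT2 (0.406), ISG15 (0.428) and TLR3 (0.434). Several of these, such as IFI6, IFIT2 and ISG15, are induced by interferon. IFIT2 and TLR3 passed in neither comparison. IFI6 stood at 110 ± 16.3 CPM in control, 20.3 ± 7.94 CPM in low glucose and 21.4 ± 15.9 CPM with BHB. For PRELP the closest were SOX12 (0.311), CSDC2 (0.374), NFATC4 (0.391), SLC38A1 (0.396) and HERC6 (0.397), and none of them passed with BHB. BGN, with its few counts, had no gene closer than PARD6G at 0.652, followed by RNASE6 (0.704), ANO5 (0.722), MAMLD1 (0.852) and HGFAC (0.859). None of these passed in either comparison, and the estimate of ANO5 with BHB was above 0 (0.94).

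No gene in the rest of the family was called. Of 11 other family genes in the table, 6 were tested and none passed in either comparison with control, with a median log2 difference of 0.21 in low glucose and 0.09 with BHB. Of these 6, CHAD, CHADL, NYX and ECM2 were under 1 CPM on average in every medium. With single libraries left out the medians ran from -0.52 (without low glucose replicate 3) to 0.27 and from -0.04 (without BHB replicate 3) to 0.25 (without control replicate 1). TSKU (tsukushi), a secreted regulator of BMP and WNT signals, stood at 32.7 ± 5.75 CPM in control, 38.0 ± 3.48 CPM in low glucose and 36.2 ± 3.48 CPM with BHB, with log2 values against control of 0.21 (95% interval -0.12 to 0.55) and 0.14 (-0.19 to 0.48). PODN (podocan), which binds collagen, stood at 8.39 ± 0.923, 9.69 ± 1.16 and 8.57 ± 1.21 CPM, with differences of 0.21 (-0.21 to 0.63) and 0.03 (-0.39 to 0.45). The second of these turned below 0 without BHB replicate 1 (-0.05) or 2 (-0.01) or control replicate 1 (-0.06). The intervals of TSKU and PODN exclude falls of the size seen for LUM and DCN. CHAD (chondroadherin) at 0.351 ± 0.353 CPM in control, CHADL at 0.164 ± 0.0974 and NYX (nyctalopin) at 0.237 ± 0.109 were scarce in every medium. PODNL1 was not tested, with 23 counts over control, 0 over low glucose and 6 over BHB libraries.

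Among genes that build the sugar chains of these proteins, PAPSS2 and B4GALT4 passed the test. The share to set beside the counts of these lists and of all lists below is that of all tested genes. It was 2.02% lower in low glucose and 1.38% with BHB. In the list of chondroitin and dermatan sulfate synthesis, 1 of 27 tested genes fell in each comparison, PAPSS2, and the list's median was -0.13 in both. PAPSS2 makes the activated sulfate that sulfotransferases need. It stood at 17.0 ± 6.28 CPM in control, 3.00 ± 0.797 CPM in low glucose (log2 -2.50, SE 0.309, edgeR adjusted p = 0.00165) and 3.43 ± 0.380 CPM with BHB (log2 -2.31, SE 0.307, edgeR adjusted p = 0.00420). The count in low glucose was 5 of 27 with DESeq2. It was 2 with the replicate block, the 6 libraries alone or a mean count of at least 50, and without low glucose replicate 1 or BHB replicate 2. For keratan sulfate synthesis, 1 of 11 fell in each comparison, B4GALT4, a galactosyltransferase of keratan chains, with medians of -0.01 and -0.08 that changed sign with single libraries left out (-0.07 to 0.09 and -0.20 to 0.04). DESeq2 gave 2 in low glucose. B4GALT4 stood at 28.5 ± 6.08 CPM in control, 7.21 ± 2.24 CPM in low glucose (log2 -1.98, SE 0.281) and 6.84 ± 1.99 CPM with BHB (log2 -2.06, SE 0.282).

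Of the collagens, the main binding partners of the family, 5 of 13 fell in low glucose with a list median of -1.34, among them COL5A1 (-2.97, SE 0.377) and COL5A2 (-2.35, SE 0.372), which encode chains of the type V collagen at the core of fibrils, COL6A2 (-1.74, SE 0.336) and COL11A1 (-2.58, SE 0.511). COL2A1 stood above 0, at 0.47 in low glucose and 1.16 with BHB, and did not pass. The count in low glucose was 8 with the replicate block, 2 without control replicate 1 or low glucose replicate 2 and 3 without low glucose replicate 3. COL6A2 lost its call without each of these (-1.30, -1.48 and -1.84), and COL11A1 without control replicate 1 or 2 (-2.40 and -2.56) or any low glucose library (-2.66, -2.66 and -2.41). With BHB 3 of 13 fell, with a median of -1.43: COL5A1 (-2.49, SE 0.369), COL5A2 (-2.14, SE 0.368) and COL3A1 (-2.21, SE 0.456). That count was 7 with no filter, 6 with the replicate block or DESeq2, 5 with limma-voom or without low glucose replicate 2, and 1 without control replicate 1 or BHB replicate 3. The medians ran from -1.52 to -0.95 and from -1.65 to -0.99 with single libraries left out. The COL5A2 call was lost without BHB replicate 1 (-1.97) or 3 (-2.19) or control replicate 1 (-1.88). The COL3A1 call was lost without BHB replicate 1 (-2.07) or 3 (-2.14), or on leaving out any control library (-1.97, -2.22 and -2.39).

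Of the growth factors, receptors and matrix proteins that family members are known to bind, the same count, 4 of 21, fell in each comparison, with list medians of -0.56 in low glucose (without low glucose replicate 2 it was -0.31, without control replicate 1 -0.36) and -0.30 with BHB (-0.47 without BHB replicate 3). They were FBN1 (fibrillin), BMP2, LRP1, the endocytic receptor of decorin, and THBS1 (thrombospondin). FBN1 stood at 37.9 ± 19.6 CPM in control, 8.16 ± 0.825 CPM in low glucose (log2 -2.22, SE 0.295) and 7.38 ± 0.903 CPM with BHB (log2 -2.36, SE 0.297). LRP1 stood at 131 ± 56.9, 33.6 ± 10.1 and 35.3 ± 7.70 CPM (log2 -1.96, SE 0.292, and -1.89, SE 0.291). BMP2 changed by -1.71 (SE 0.241) and -1.84 (SE 0.243), and THBS1 by -2.35 (SE 0.420) and -2.69 (SE 0.426). THBS1 lost its call in low glucose without low glucose replicate 3 (-2.30, edgeR adjusted p = 0.0568). The growth factor gene TGFB1 and the receptor genes EGFR and MET, named after their values were seen because decorin binds their products, did not pass, at -0.94, 0.01 and -0.11 in low glucose and -0.83, 0.08 and -0.22 with BHB.

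Proteases that cut or release these proteoglycans had 3 of 15 lower in low glucose (median -0.37) and 2 of 15 with BHB (median -1.11, with MMP1 at 0 counts there). DESeq2 gave 5 in low glucose. With single libraries left out the medians ran from -1.18 (without low glucose replicate 2) to -0.23 (without low glucose replicate 1) and, with BHB, from -1.53 to -0.41, with -0.51 without control replicate 1. HTRA1, a serine protease, stood at 90.1 ± 46.1 CPM in control, 15.2 ± 2.02 CPM in low glucose (log2 -2.56, SE 0.309) and 16.1 ± 3.41 CPM with BHB (log2 -2.49, SE 0.308). BMP1, the procollagen proteinase that also trims biglycan precursors, stood at 19.2 ± 6.38, 3.81 ± 0.716 and 4.48 ± 1.27 CPM (log2 -2.33, SE 0.293, and -2.10, SE 0.290). MMP2, a gelatinase, fell in low glucose (-2.56, SE 0.497), and this call was lost without control replicate 1 (-2.26) or 3 (-2.34) or any low glucose library (-2.34, -2.56 and -2.77).

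Of other proteoglycans, built on unrelated core proteins, a few fell. In low glucose 3 of 24 were lower (median 0.00200, from -0.16 to 0.07 with single libraries left out): VCAN (versican) at -2.55 (SE 0.466), the syndecan gene SDC2 at -1.02 (SE 0.167) and the glypican gene GPC4 at -1.36 (SE 0.251). VCAN lost its call without low glucose replicate 3 (-2.27), and GPC4 without control replicate 1 (-1.25), control replicate 3 (-1.24) or low glucose replicate 2 (-1.18). With BHB 5 of 24 were lower (median -0.02, from -0.26 to 0.02), led by VCAN at -3.28 (SE 0.482). That count was 6 with the replicate block or DESeq2 and 1 with the 6 libraries alone. It fell to between 1 and 3 without any single library except low glucose replicate 3, and VCAN alone among the named genes kept its call in all these fits.

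**Figure D4:**
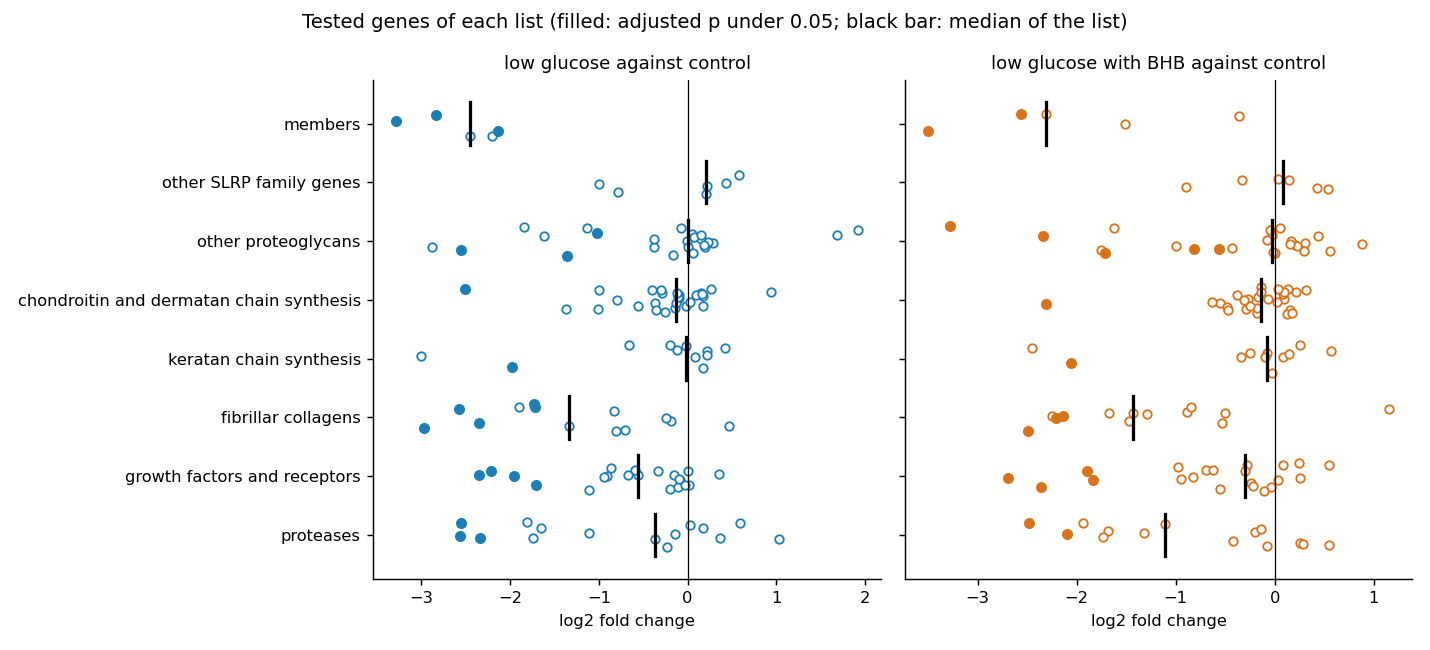
Log2 fold changes against control (x axis) of the tested genes in the members and 7 fixed lists (rows), for low glucose (left) and low glucose with BHB (right); filled points have an adjusted p under 0.05 and black bars are list medians. Medians of the chain synthesis lists lie near 0, while the members (-2.45 and -2.31) and the collagens (-1.34 and -1.43) lie below; MMP1, with no counts with BHB, is not drawn on the right.

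Markers of connective tissue and follicle cells moved with the members in part. Among markers of fibroblasts and stroma, 3 of 17 tested fell in low glucose (median -0.70) and 4 of 17 with BHB (median -0.89), and 5 of these 17 are in another list as well. Their summed level was 746 to 1393 CPM in control (median 793), 444 to 612 CPM in low glucose and 385 to 604 CPM with BHB, and neither low glucose range overlapped control. That sum leans on a few genes. Its largest parts in control were VIM (218 ± 57.4 CPM), COL1A2 (211 ± 85.5 CPM), COL1A1 (177 ± 127 CPM) and PDGFRA. COL1A1 and COL1A2 are also in the collagen list. VIM (vimentin) changed by -1.64 (SE 0.241) and -1.77 (SE 0.242), PDGFRB by -2.22 (SE 0.342) and -2.26 (SE 0.342), and TAGLN in low glucose by -1.70 (SE 0.342), a call lost without control replicate 1 (-1.47) or 3 (-1.68) and low glucose replicate 2 (-1.48) or 3 (-1.61). VIM lost both calls without the first replicates (-1.47 and -1.63, edgeR adjusted p = 0.0566 and 0.0618), and so did PDGFRB with BHB (-2.003, edgeR adjusted p = 0.0762). Of the 17 tested markers, 14 lay below 0 in each comparison. Some well-known markers did not fall with the members. PDGFRA, also in the hypoblast list, stood at 144 ± 13.3 CPM in control, 157 ± 21.7 CPM in low glucose and 131 ± 26.5 CPM with BHB. FBLN1 stood at 9.21 ± 5.38, 11.5 ± 5.82 and 13.3 ± 11.0 CPM, and DPT at 3.05 ± 0.171, 2.89 ± 0.733 and 3.09 ± 0.142 CPM. The count in low glucose was 6 with DESeq2 and 5 with limma-voom, no filter, the replicate block or without BHB replicate 2, and that with BHB was 2 without BHB replicate 3, control replicate 1 or 3 or the first replicates. The markers at 0 in all control and low glucose libraries were FAP and PI16, which had 6 and 33 counts with BHB. The list's medians ran from -1.19 to -0.22 in low glucose and from -1.36 to -0.31 with BHB, with both upper values from leaving out control replicate 1.

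Among markers of cumulus and granulosa cells, which surround the oocyte during maturation (3 of them in another list too), 5 of 23 fell in low glucose (median -0.67) and 4 of 23 with BHB (median -0.84). NR5A1, the steroidogenic factor gene, fell from 7.54 ± 1.10 CPM in control to 1.10 ± 0.207 CPM in low glucose and 1.95 ± 0.877 CPM with BHB. Its call with BHB was lost without control replicate 3 (-1.80), BHB replicate 3 (-1.90) or the first replicates (-1.71). Not all markers of these cells were lower. CYP19A1 stood at 21.2 ± 6.47 CPM in control, 19.5 ± 1.16 CPM in low glucose and 22.4 ± 4.93 CPM with BHB. HSD3B1 stood at 45.3 ± 5.97, 59.5 ± 23.7 and 59.3 ± 30.8 CPM. The summed level of the list overlapped between groups, at 955 to 1066 CPM in control, 674 to 1448 CPM in low glucose and 758 to 1312 CPM with BHB. PTGS2, which is also in the trophectoderm list, was the largest part of that sum. It stood at 451 ± 94.6, 694 ± 300 and 666 ± 237 CPM, so the sum leans on this gene more than on any other marker. Of the 23 tested markers, 19 lay below 0 in low glucose and 17 with BHB, and no marker of the list was at 0 in all libraries. INHA was at 0 in low glucose, and CYP11B1 in low glucose and with BHB. The medians ran from -1.08 (without low glucose replicate 1) to -0.58 and from -1.05 to -0.61. The count in low glucose was 8 with DESeq2, 3 without control replicate 3 or low glucose replicate 2 and 2 without low glucose replicate 3, and with BHB it was 2 without control replicate 1 or BHB replicate 1 and 1 without control replicate 3, BHB replicate 3 or the first replicates. Hypoblast markers had 4 of 21 lower in each comparison (medians -0.21 and -0.06, the second turning to 0.10 without BHB replicate 1), a count that was 2 with BHB without control replicate 3 or BHB replicate 3. They were led by SERPINH1 (-1.39, SE 0.157, and -1.36, SE 0.157), BMP2 and GJA1 (-2.25, SE 0.367, and -2.17, SE 0.366). The GJA1 call with BHB was lost without control replicate 3 (-1.98) or BHB replicate 3 (-2.11). Of the 21 tested hypoblast markers, 11 lay below 0 in each comparison. Markers of theca, blood and endothelial cells and sperm had none past the threshold, with medians of -0.27, -0.03 and -0.58 in low glucose and 0.20, 0.05 and 0.30 with BHB. With single libraries left out, theca turned to 0.27 in low glucose without control replicate 1, sperm with BHB ran from -0.22 to 0.68 with -0.16 without control replicate 1, and blood and endothelial cells with BHB ran from -0.07 to 0.17. The part of any of these cell types in the levels of the members was not tested.

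Across the alternatives of both comparisons with control, LUM passed in every fit, DCN in all but the fits without the first replicates, and FMOD and PRELP in some. In low glucose 2 to 4 of the 5 tested members were lower over the 17 alternatives, and with BHB 1 to 3. RLE scaling left the same members called in both comparisons. Leaving out the first replicates also ended the low glucose calls of GPC4 (-1.41), COL6A2 (-1.47), MMP2 (-2.06) and TAGLN (-1.83) and the BHB calls of SDC2 (-0.89), CSPG4 (-1.65) and NR5A2 (-1.13), and limma-voom ended that of MMP2 in low glucose (-2.37).

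**Figure D5:**
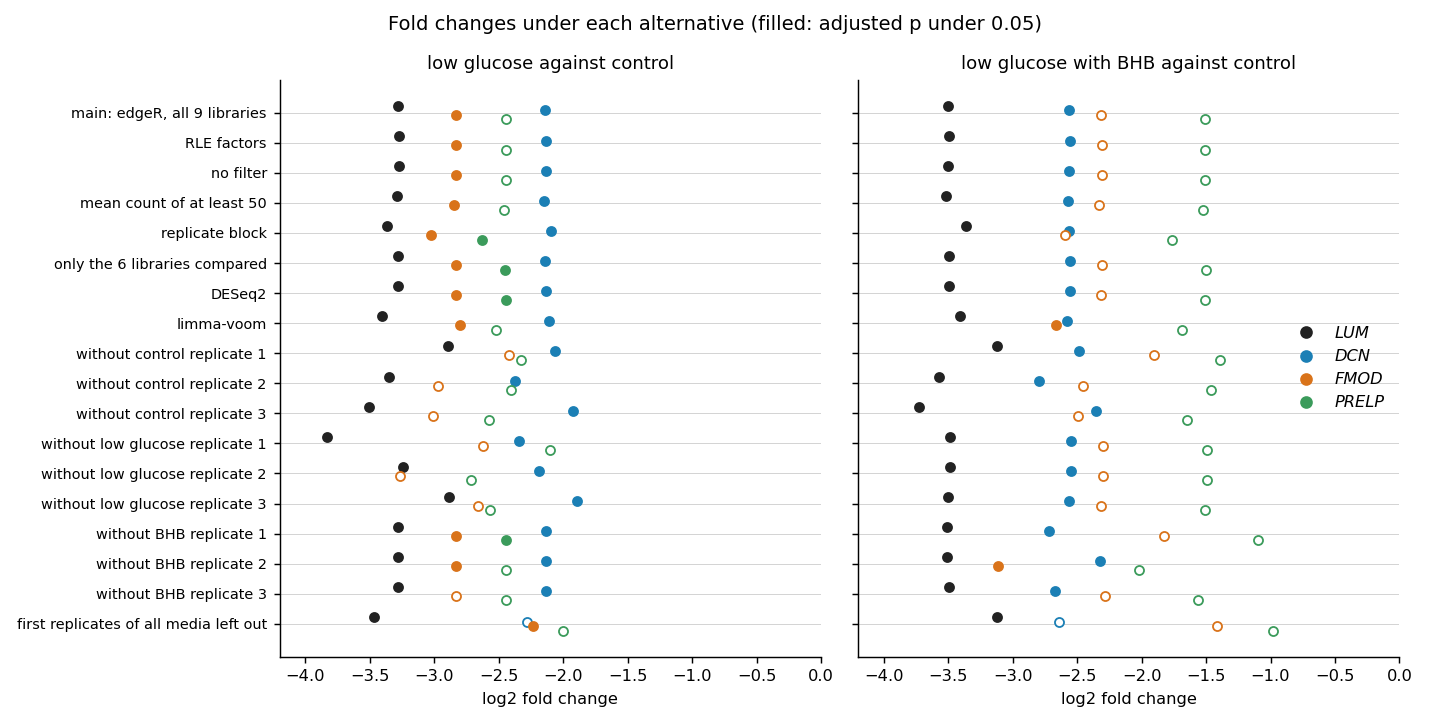
Log2 fold changes against control (x axis) of LUM, DCN, FMOD and PRELP under the main fit and 17 alternatives (rows), for low glucose (left) and BHB (right), with filled points for an adjusted p under 0.05. All points lie below 0; LUM is filled throughout, from -2.89 to -3.83 in low glucose and -3.12 to -3.73 with BHB, and PRELP is filled in 4 of the low glucose fits and none with BHB.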

How the data were processed

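Sequencing of poly(A) RNA measured 9 pools of day 8 bovine blastocysts, 3 per maturation medium. The authors deposited 1 table of estimated counts, gene by library. Of its values 18.9% differ from a whole number by over 0.001, but all 63 values of the members are whole. The tools named, per the submitters' processing notes, are kallisto, fastp and DESeq2, and the build is bosTau9. For versions, settings and annotation, nothing is stated in these sources. Reads shared by similar transcripts are divided by estimation in kallisto, which can move counts between near-identical copies.

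Estimated counts were rounded, scaled with TMM factors and fitted in edgeR 4.0.16 (R 4.3.3) by its quasi-likelihood test, in a single fit of all 9 libraries. Genes were kept by filterByExpr (minimum count 10, minimum total 15): 16469 stayed and 5658 were set aside. P-values were two-sided and adjusted by Benjamini-Hochberg over all tested genes, and a result passed at an adjusted p under 0.05. The fit's common biological coefficient of variation was 0.322. F statistics and fold changes gave the standard errors and the 95% intervals. The table itself names 17706 genes, and RefSeq (ARS-UCD2.0) named 323 more. Gene order along chromosomes came from that RefSeq table, and no coordinates are given because the builds differ.

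The members, the 7 pathway lists and the 8 marker lists were chosen with earlier results of these data known. Text names all members, every tested gene of the wider family by its level, the leading genes past the threshold in each list, and the 5 genes whose centred log2 CPM profile (prior count 2) over the 9 libraries lay closest to each member by root mean square difference. Alternatives were RLE factors, no filter, a minimum mean count of 50, a block for the replicate number, the 6 libraries compared alone, DESeq2 1.42.0, limma-voom (limma 3.58.1) and leaving out each library. Leaving out the first replicate of every medium was added after the data were seen. Same-numbered libraries of both low glucose media deviated together (correlations of 0.115, 0.243 and 0.102 for replicates 1, 2 and 3), which pairs them by a pattern in the data, with no label behind it. Pairs of unlike number between the low glucose media correlated at -0.174 to 0.039. Same-numbered pairs with control correlated at 0.0417 to 0.144 and were not taken as paired, and pairs of unlike number there ran from -0.105 to 0.0692. The main fit used no pairing in any comparison. On simulated counts for 16469 genes, edgeR recovered 82.5% of 97 genes changed 4-fold for low glucose against control, 81.4% of 97 for BHB against control and 64.6% of 99 for BHB against low glucose. Of genes changed 2-fold it recovered less, 45.4% of 97, 48.5% of 97 and 34.7% of 98 in the same order. False calls made up 6.77%, 5.97% and 6.67% of the calls. Figures were drawn with matplotlib 3.10.9.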

Additional observations from a re-analysis of the deposited data

How the results depend on the processing

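The members' fold changes were fitted under 17 alternatives, 252 values in all, of which 231 kept direction and side of the threshold, 9 lost a call, 6 gained 1 and 6 changed sign. Those that changed sign had no call: BGN with BHB against control (0.33 without control replicate 2 and 0.12 without BHB replicate 2, within -1.32 to 0.33 over all libraries left out in turn), LUM between the low glucose media (0.00556 with the replicate block, 0.35 without low glucose replicate 1, within -0.61 to 0.35, and 0.35 without the first replicates) and FMOD between them (-0.28 without BHB replicate 2, within -0.28 to 1.01). PODN with BHB ran from -0.0590 to 0.14 with single libraries left out and was -0.14 without the first replicates. Members lower with BHB numbered 1 without the first replicates. PRELP passed in low glucose with the replicate block (-2.63, edgeR adjusted p = 0.0404), with the 6 libraries compared alone (-2.45), with DESeq2 (-2.45) and without BHB replicate 1, and FMOD passed with BHB in limma-voom (-2.67). The replicate block changed no other member's call.

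Genes lower over the whole table numbered 570 in low glucose and 431 with BHB by DESeq2, 99 with BHB without the first replicates, and 194 to 391 in low glucose and 90 to 256 with BHB when single libraries were left out. Genes higher numbered 11 (DESeq2), 0 (limma-voom), 0 (without the first replicates) and 0 to 3 (single libraries left out) in low glucose. With BHB they numbered 10 (DESeq2), 4 (replicate block), 0 (mean count of at least 50), 0 (without the first replicates) and 0 to 1 (single libraries left out). Between the low glucose media DESeq2 gave 1 lower and 1 higher. The cause of these shifts was not tested. Low counts limit BGN, ASPN and OGN.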
